A study of Mus musculus with 4 samples.

Results

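The genes described here are 10 targets of the tumour suppressor p53 and growth arrest genes, Cdkn1a, Gadd45a, Btg2, Plk2, Plk3, Mdm2, Ccng1, Zmat3, Sesn2 and Trp53inp1. They were taken by symbol from a count table of 16846 genes, with earlier results of these data known. All 10 had a row, and all 10 were among the 12115 genes that passed the filter on low counts. The libraries came from HT22 cells, a mouse hippocampal line, in which Ntoco, the transcript that the series title links to ferroptosis and brain injury, was targeted by an shRNA or overexpressed, per the labels. There were 4 groups of 2 libraries each: cells with a control shRNA (sh-Ctrl), cells with an shRNA against Ntoco (sh-Ntoco), cells with an empty vector (Vector) and cells with an Ntoco overexpression construct (Lv-Ntoco). The labels give no dose, time after delivery, clone or passage, and they list 1 sample for each group where the table holds 2 columns. The p-values therefore measure the spread between these libraries, which may be technical. The cell line field reads HT22 for every group, although the titles run upward from HT22 to HT25. The overexpression title carries the prefix Lv, whereas the table calls its control pcDNA, so whether both were delivered in the same way cannot be told from the labels.

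The p53 protein is kept scarce in unstressed cells because Mdm2 marks it for destruction. DNA damage, oxidative stress and nutrient stress stabilise it, and it then switches on genes that stop the cell cycle, repair DNA, adjust metabolism or lead to apoptosis, together with genes such as Mdm2 that shut it off again. Several of these genes also answer to other pathways: Sesn2 and Gadd45a are induced by the stress factor ATF4, and Btg2, Plk2 and Plk3 respond within minutes to serum and other growth signals. HT22 cells descend from hippocampal cells immortalised with a viral large T antigen, a protein known to bind p53, which limits them as a model of p53 signalling. Ferroptosis, the iron-dependent form of cell death named in the title, has been tied to p53 and to p21 in other systems.

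The start regions of 5 members are shown because they hold the motif matches described for them below, some of which other members and many other genes share. Each run covers 250 bases before to 50 bases after the first base of the transcript, 5′ to 3′ on the gene's strand, from RefSeq on GRCm38.p6, the assembly also known as mm10. Capitals mark the motif named for each gene below.
Cdkn1a: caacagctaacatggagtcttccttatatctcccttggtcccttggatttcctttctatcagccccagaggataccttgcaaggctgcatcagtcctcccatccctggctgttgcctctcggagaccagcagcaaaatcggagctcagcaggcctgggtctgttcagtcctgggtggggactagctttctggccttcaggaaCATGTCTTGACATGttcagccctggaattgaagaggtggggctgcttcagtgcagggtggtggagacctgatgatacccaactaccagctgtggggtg
Gadd45a: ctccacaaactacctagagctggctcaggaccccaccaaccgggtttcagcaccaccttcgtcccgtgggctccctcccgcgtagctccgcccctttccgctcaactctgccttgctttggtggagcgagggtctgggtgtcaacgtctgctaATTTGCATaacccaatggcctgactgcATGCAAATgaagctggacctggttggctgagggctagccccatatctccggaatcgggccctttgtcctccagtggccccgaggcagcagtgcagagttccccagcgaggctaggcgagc
Btg2: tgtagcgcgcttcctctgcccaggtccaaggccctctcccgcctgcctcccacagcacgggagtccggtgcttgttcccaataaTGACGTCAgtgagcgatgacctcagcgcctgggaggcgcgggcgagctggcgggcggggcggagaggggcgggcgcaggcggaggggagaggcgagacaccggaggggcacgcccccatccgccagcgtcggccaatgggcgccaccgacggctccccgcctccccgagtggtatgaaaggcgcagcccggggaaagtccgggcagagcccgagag
Plk2: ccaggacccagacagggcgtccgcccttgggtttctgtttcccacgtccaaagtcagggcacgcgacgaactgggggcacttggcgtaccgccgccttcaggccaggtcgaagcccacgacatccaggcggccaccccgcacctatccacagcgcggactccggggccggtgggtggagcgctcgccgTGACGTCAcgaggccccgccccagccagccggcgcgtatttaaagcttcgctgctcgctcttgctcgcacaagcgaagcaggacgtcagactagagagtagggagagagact
Plk3: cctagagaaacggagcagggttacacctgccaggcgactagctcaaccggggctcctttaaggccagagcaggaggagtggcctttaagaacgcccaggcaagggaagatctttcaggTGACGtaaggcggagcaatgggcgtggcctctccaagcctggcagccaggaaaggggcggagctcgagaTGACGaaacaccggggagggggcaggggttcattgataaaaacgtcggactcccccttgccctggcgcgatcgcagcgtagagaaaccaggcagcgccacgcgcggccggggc
In the upstream Cdkn1a window (chr17:29090729-29091028, plus strand) the capitals mark a pair of p53 core letters, CATG and again CATG with 6 bases between them. The first base of the pair lies 48 bases before the upstream start. The window at the second, downstream start of Cdkn1a (chr17:29093519-29093818) did not hold this pair. This pair was found in 0.712% of 32851 windows of the same length. The Gadd45a window (chr6:67037358-67037657, minus strand) holds the octamer motif ATGCAAAT once on each strand, 97 and 70 bases before the start, and 1.74% of windows held it on either strand. The Btg2 window (chr1:134079106-134079405, minus strand) and the Plk2 window (chr13:110394794-110395093, plus strand) each hold the full cAMP response element TGACGTCA, 166 and 62 bases before the start, found in 1.79% of windows. The Plk3 window (chr4:117133914-117134213, minus strand) holds only its shorter form TGACG, 132 and 63 bases before the start, which lies inside the full element and was found in 20.8% of windows.

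Of the 10 members, 8 had such a window, with 9 windows in all because Cdkn1a has a second start. Zmat3 and Trp53inp1 had none. The consensus p53 half-site, searched on both strands, was present in the windows of Cdkn1a, Mdm2, Ccng1 and Gadd45a and in 8.36% of all windows. The upstream Cdkn1a window holds 2 such half-sites, of which 1 overlaps the core pair and 1 lies farther from the start. The window at the second Cdkn1a start holds none. The letters CCAAT, of the CCAAT box, were in the windows of 5 members (Btg2, Ccng1, Gadd45a, Mdm2 and Sesn2), against 37.4% of all windows. None of the member windows held TATAAA (13.6% of all windows), the AP-1 letters TGANTCA (7.81%), the amino acid response letters TGATGCAA (0.895%) or the serum response element core (1.63%). These are letter matches in a short window and were not tested for binding.

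Total counts ran from 18452588 to 19859041 a library. Ntoco itself was not analysed here, since 0 rows carry that name, so neither the knockdown nor the overexpression was checked in these libraries. The neuronal label was not borne out by markers: 8 of 14 neuronal genes were measured, 1 of them (Syp) passed the filter, their summed level was 0.623 to 1.60 CPM in all 8 libraries (counts scaled to library size), and Map2 and Tubb3 had at most 1 and 2 counts. Of 7 fibroblast genes, 6 were measured and Lum was at 0 throughout, while the sum of the list was 3392 and 3359 CPM in the control shRNA libraries, 4846 and 1464 in the knockdown libraries, 1333 and 2316 with the empty vector and 2341 and 2114 with overexpression. Col1a2 (1043 to 3629 CPM) and Col1a1 (209 to 1127 CPM) carried that sum, while Dcn had at most 1 count and Col3a1 2 to 60 counts. Astrocyte genes (6 of 7 measured) summed to 113 and 107 CPM in the control shRNA libraries, 109 and 46.8 in the knockdown libraries, 42.3 and 79.7 with the empty vector and 107 and 104 with overexpression. Most of that sum was Gja1, a gap junction gene also expressed outside astrocytes. Its log2 ratios were -0.58 (SE 0.29) for knockdown, 0.75 (SE 0.29) for overexpression and -0.67 (SE 0.29) for the empty vector. Aldh1l1 (1.55 to 34.9 CPM) and S100b (5.08 to 22.7 CPM) also added to the sum, whereas Gfap had 10 to 25 counts. Aldh1l1 had log2 ratios of 1.41 (SE 0.96) for overexpression and -1.67 (SE 0.96) for the empty vector. Oligodendrocyte lineage genes (5 of 7 measured) summed to 151 to 416 CPM, nearly all of it Cspg4 (140 to 404 CPM), with Sox10 at 0 to 2 counts and Mog at 0 or 1. Endothelial genes (4 of 6 measured) summed to 0.418 to 2.37 CPM, and microglial and macrophage genes (7 of 9, with C1qa and Ptprc at 0) to 10.2 to 18.2 CPM. One library stood apart in its early response genes. The 22 immediate early genes measured summed to 6259 CPM in control shRNA library 2 and to between 1878 and 3480 CPM in the other 7. The part of these differences in the results below was not tested.

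No member changed past the threshold in any comparison, and the set split into genes that were steady between libraries of a group and genes that were not. Plk3, a stress-activated kinase, was the member with the clearest pattern. Both knockdown libraries were below both control shRNA libraries (14.1% of all genes). Both overexpression libraries were below both empty vector libraries (23.1% of all genes). Mdm2 and Ccng1 were also fairly steady within groups. Under overexpression neither overlapped the empty vector libraries, Mdm2 lower and Ccng1 higher. The same held for Gadd45a (lower) and for 47.2% of all genes on either side. Cdkn1a, Gadd45a, Btg2, Plk2 and Trp53inp1 differed by 2.77-fold to 9.97-fold between the libraries of at least 1 group (from log2 CPM with a prior count of 2), more than they differed between groups in any comparison. Levels below are CPM scaled with the trimmed mean of M values (TMM), and log2 ratios with standard errors (SE) come from edgeR's quasi-likelihood test fitted over all groups, with Benjamini-Hochberg adjustment over 12115 genes.

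**Figure D1:**
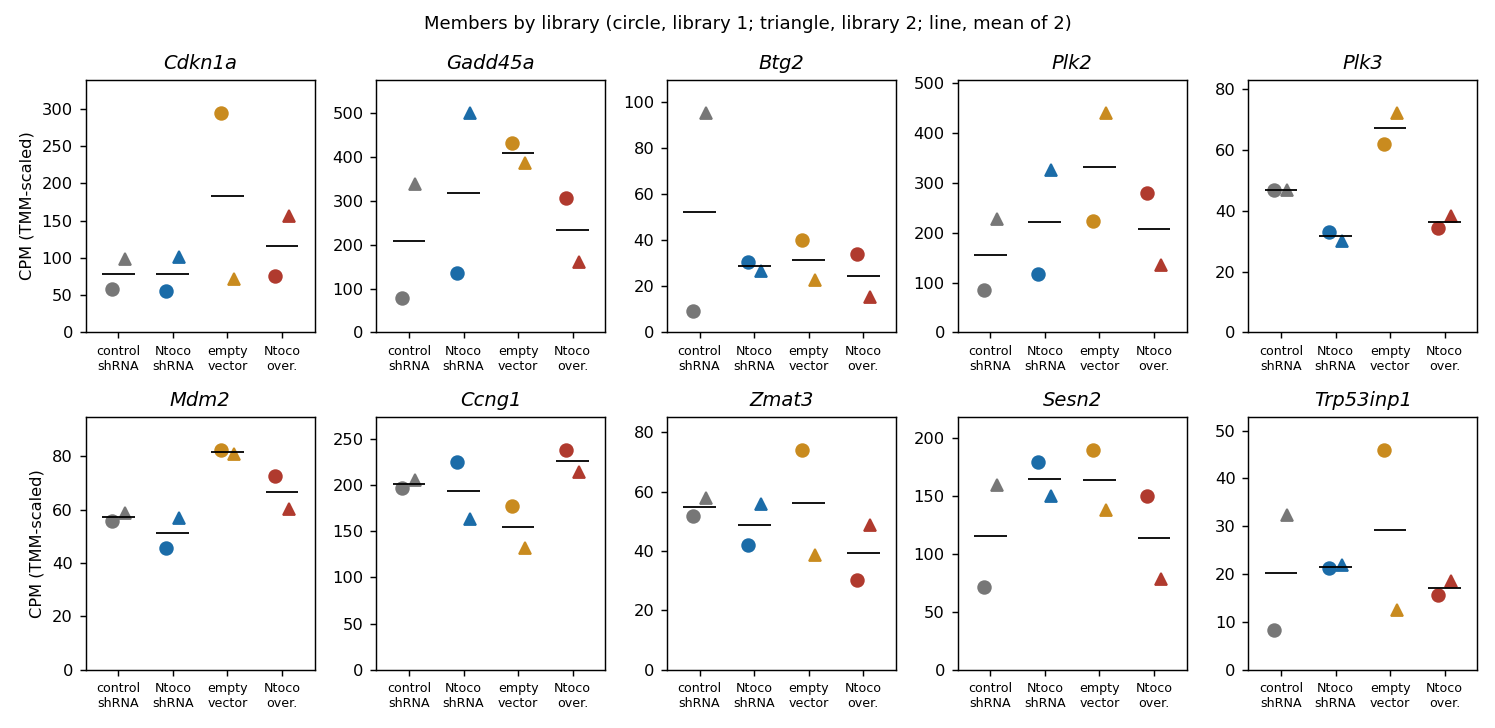
CPM (TMM-scaled, linear axes from 0) of the 10 members in the 8 libraries, 2 for each of the 4 groups (control shRNA, Ntoco shRNA, empty vector, Ntoco overexpression); circles are library 1, triangles library 2 and lines the mean of 2. The 4 groups of Plk3 do not overlap, from 30.1 to 33.1 CPM in the knockdown to 62.0 to 72.2 CPM with the empty vector, whereas Cdkn1a with the empty vector spans 71.5 to 295 CPM.

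Cdkn1a (chr17:29090979-29100722) encodes p21, the inhibitor of cyclin-dependent kinases through which p53 halts the cell cycle. It had 58.0 and 98.9 CPM in the control shRNA libraries, 56.0 and 101 in the knockdown libraries, 295 and 71.5 with the empty vector and 76.1 and 156 with overexpression. A single library, empty vector library 1, was high, and the 4 groups overlapped throughout. In bulk RNA such as this, fewer cells that express a gene and less RNA per cell cannot be told apart. Knockdown against control shRNA gave a log2 ratio of -0.0035 (SE 0.65, edgeR adjusted p = 1). Overexpression against empty vector gave -0.66 (SE 0.65, edgeR adjusted p = 0.709). Without empty vector library 1 the overexpression ratio was 0.70. The same library accounted for the sign of the empty vector against the control shRNA, 1.22 (SE 0.66) with it and -0.14 without it.

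Gadd45a (chr6:67035096-67037407), which encodes a stress sensor that acts on the G2 checkpoint and DNA repair, had 79.1 and 338 CPM in the control shRNA libraries and 134 and 501 in the knockdown libraries. It had 432 and 385 CPM with the empty vector and 307 and 161 with overexpression. Both overexpression libraries were below both empty vector libraries, which in turn were above both control shRNA libraries, and the knockdown overlapped its control. The log2 ratios were 0.61 (SE 0.75) for knockdown, -0.80 (SE 0.75) for overexpression and 0.97 (SE 0.75) for the empty vector against the control shRNA, with edgeR adjusted p = 0.992, 0.696 and 0.560. The knockdown ratio was -0.63 without knockdown library 2 and 1.998 without control shRNA library 2. Scaled by length, Gadd45a was the highest of the members, with a mean of 239 FPKM over the 8 libraries, above 97.98% of the genes tested by mean FPKM. Its relatives Gadd45b and Gadd45g had at most 79.3 and 52.96 CPM in a library.

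Plk2 (chr13:110395044-110400844), a polo-like kinase that p53 induces and that acts at centrosomes and synapses, ordered the libraries as Gadd45a did within 3 of the 4 groups. It had 84.2 and 227 CPM in the control shRNA libraries, 117 and 325 in the knockdown libraries, 224 and 441 with the empty vector and 279.8 and 135 with overexpression. In both shRNA groups library 2 was higher than library 1, and in the overexpression group library 1 was higher, for both genes. With the empty vector Plk2 was higher in library 2, whereas Gadd45a was higher in library 1. No pair of groups compared was free of overlap. The log2 ratios were 0.51 (SE 0.64) for knockdown, -0.68 (SE 0.64) for overexpression and 1.09 (SE 0.65) for the empty vector against the control shRNA, with edgeR adjusted p = 0.992, 0.700 and 0.475. The knockdown ratio was -0.41 without knockdown library 2 and 1.39 without control shRNA library 2.

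Plk3 (chr4:117128655-117133963), the polo-like kinase that phosphorylates p53 and other proteins after DNA damage and oxidative stress, had 46.9 and 46.9 CPM in the control shRNA libraries and 33.1 and 30.1 in the knockdown libraries. With the empty vector it had 62.0 and 72.2 CPM, and with overexpression 34.5 and 38.3. In ascending order the groups were knockdown, overexpression, control shRNA and empty vector, and no neighbours in that order overlapped. Thus Plk3 was lower both where Ntoco was targeted and where it was overexpressed, each against its own control, in comparisons that share no library. Knockdown gave a log2 ratio of -0.57 (SE 0.19, 0.674 of the control level) with unadjusted p = 0.0167 and edgeR adjusted p = 0.992. It was -0.88 (SE 0.19, 0.542 of the vector level) for overexpression, with unadjusted p = 0.00164, the third smallest of all genes, and edgeR adjusted p = 0.598. For the empty vector against the control shRNA it was 0.52 (SE 0.19), with unadjusted p = 0.0250 and edgeR adjusted p = 0.367. The empty vector libraries enter both of the last comparisons, so their high level adds to both values.

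For Plk3, the overexpression effect minus the knockdown effect was -0.31 (SE 0.26, unadjusted p = 0.270), so the design did not separate the 2 effects in size. Leaving out any 1 library gave -0.65 to -0.50 for knockdown and -0.99 to -0.77 for overexpression, and the lowest adjusted p for Plk3 over all settings tried was 0.339 and 0.192. Plk3 overlaps the gene Tctex1d4 on the opposite strand, and that gene had 0 to 5 counts a library against 611 to 1402 for Plk3. Other polo-like kinases had other orders of the groups. Plk4, which controls centriole duplication, was lower than its control in both knockdown libraries (70.4 and 56.4 CPM against 98.4 and 87.1, log2 ratio -0.55, SE 0.20). It was higher than the empty vector in both overexpression libraries (92.8 and 86.3 CPM against 55.3 and 64.6, log2 ratio 0.58, SE 0.20), and the difference of its 2 effects had unadjusted p = 0.00388. Plk1, the mitotic kinase, had 80.0 and 97.2 CPM with overexpression against 31.5 and 60.9 with the empty vector, a log2 ratio of 0.94 (SE 0.44). None of these values passed after adjustment (edgeR adjusted p = 0.992 for Plk4 in the knockdown and 0.598 for Plk4 and Plk1 under overexpression).

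Btg2 (chr1:134074865-134079155), an antiproliferative protein that recruits the deadenylation machinery to mRNAs, differed more between libraries of a group than any other member. It had 9.48 and 95.5 CPM in the control shRNA libraries, 30.7 and 26.7 in the knockdown libraries, 40.0 and 22.8 with the empty vector and 33.9 and 15.4 with overexpression. The control shRNA libraries were both the lowest and the highest of the 8, a 9.97-fold difference within 1 group. The log2 ratios were -0.87 (SE 0.87) for knockdown, -0.35 (SE 0.87) for overexpression and -0.74 (SE 0.87) for the empty vector against the control shRNA, with edgeR adjusted p = 0.992, 0.893 and 0.699. Without control shRNA library 2 the knockdown ratio was 1.59 and the vector ratio 1.72. In that library the immediate early genes Fos and Egr1 had 456 and 1683 CPM, against 41.7 and 259.6 in control shRNA library 1. Plk2 rose from 84.2 CPM in library 1 to 227 in library 2, and Plk3 had 46.9 CPM in both. A link between the Btg2 level and an early response was not tested.

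Mdm2 (chr10:117688875-117710758), the ubiquitin ligase that degrades p53 and is itself a p53 target, had 55.8 and 58.8 CPM in the control shRNA libraries and 45.8 and 57.1 in the knockdown libraries. It had 82.4 and 81.0 CPM with the empty vector and 72.7 and 60.4 with overexpression. In ascending order, knockdown and control shRNA overlapped, overexpression lay above both, and the empty vector lay above overexpression. Its log2 ratio was -0.16 (SE 0.20) for knockdown, -0.30 (SE 0.20) for overexpression and 0.51 (SE 0.20) for the empty vector against the control shRNA. The last of these had unadjusted p = 0.0313 and edgeR adjusted p = 0.369, and the others edgeR adjusted p = 0.992 and 0.623. Leaving out any 1 library kept each of these 3 signs, with the vector ratio between 0.47 and 0.55.

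Ccng1 (chr11:40748552-40755309), which encodes cyclin G1, a partner of protein phosphatase PP2A that acts on Mdm2, ran opposite to Mdm2 between the vector groups. It had 197 and 206 CPM in the control shRNA libraries, 225 and 163 in the knockdown libraries, 177 and 132 with the empty vector and 238 and 214 with overexpression. Both overexpression libraries were above every control shRNA and empty vector library, and the empty vector and knockdown overlapped. Its log2 ratio was 0.55 (SE 0.23) for overexpression, with unadjusted p = 0.0430 and edgeR adjusted p = 0.598. It was -0.05 (SE 0.23) for knockdown and -0.38 (SE 0.23) for the empty vector against the control shRNA. The difference of the overexpression and knockdown effects was 0.60 (SE 0.32, unadjusted p = 0.0988), the smallest p among the members for that difference. Its relative Ccng2, which encodes cyclin G2, had 73.8 and 28.7 CPM with overexpression against 22.6 and 12.003 with the empty vector, a log2 ratio of 1.57 (SE 0.59, edgeR adjusted p = 0.598).

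Zmat3 (chr3:32334792-32365665), an RNA-binding zinc finger protein and p53 target, had 51.7 and 57.8 CPM in the control shRNA libraries, 41.9 and 55.9 in the knockdown libraries, 74.0 and 38.6 with the empty vector and 30.1 and 48.6 with overexpression. All compared groups overlapped. The log2 ratios were -0.16 (SE 0.36) for knockdown, -0.52 (SE 0.36) for overexpression and 0.04 (SE 0.35) for the empty vector against the control shRNA. Without empty vector library 1, the library that was also high in Cdkn1a, the overexpression ratio was 0.03.

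Sesn2 (chr4:132492804-132510456), a sestrin that restrains mTORC1 and supports the antioxidant response, had 71.4 and 159 CPM in the control shRNA libraries, 179 and 149.6 in the knockdown libraries, 189.5 and 138 with the empty vector and 149 and 78.0 with overexpression. Control shRNA library 1 and overexpression library 2 were low, and the other 6 libraries lay between 138 and 189.5 CPM. The log2 ratios were 0.51 (SE 0.43) for knockdown, -0.53 (SE 0.43) for overexpression and 0.50 (SE 0.43) for the empty vector against the control shRNA, with edgeR adjusted p = 0.992, 0.667 and 0.588. The knockdown ratio was 0.04 without control shRNA library 1 and 1.20 without library 2. Its relatives Sesn1 and Sesn3, also induced under stress, were far lower in the same libraries, with at most 7.38 and 5.55 CPM.

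Trp53inp1 (chr4:11156441-11174379), a stress protein that promotes p53 activity and autophagy, was the lowest member per length, with a mean of 4.05 FPKM over the 8 libraries. It had 8.22 and 32.4 CPM in the control shRNA libraries, 21.2 and 21.8 in the knockdown libraries, 45.9 and 12.6 with the empty vector and 15.7 and 18.5 with overexpression. The knockdown and overexpression libraries were close together, while both control groups spread widely around them, by up to 3.91-fold. The log2 ratios were 0.08 (SE 0.69) for knockdown, -0.77 (SE 0.70) for overexpression and 0.52 (SE 0.69) for the empty vector against the control shRNA. Without empty vector library 1 the overexpression ratio was 0.45, and the knockdown ratio was -0.59 or 1.38 without control shRNA library 1 or 2.

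The members thus ranged from among the steadier to among the more variable genes of the table. Averaged over the 4 groups, the absolute log2 difference within a group was 0.13 for Plk3 and 0.17 for Mdm2, below the median of 0.35 over all genes tested, and only 5.61% and 13.0% of genes had a smaller value. It was 1.37 for Btg2, 1.27 for Gadd45a, 1.23 for Plk2, 1.17 for Cdkn1a and 1.03 for Trp53inp1, values above those of 93.4% of genes or more. Ccng1 had 0.28, Zmat3 0.55 and Sesn2 0.70. The direction differed between groups: library 2 was the higher for Gadd45a by 2.10 in the control shRNA and 1.90 in the knockdown, whereas library 2 minus library 1 was -0.93 under overexpression.

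**Figure D2:**
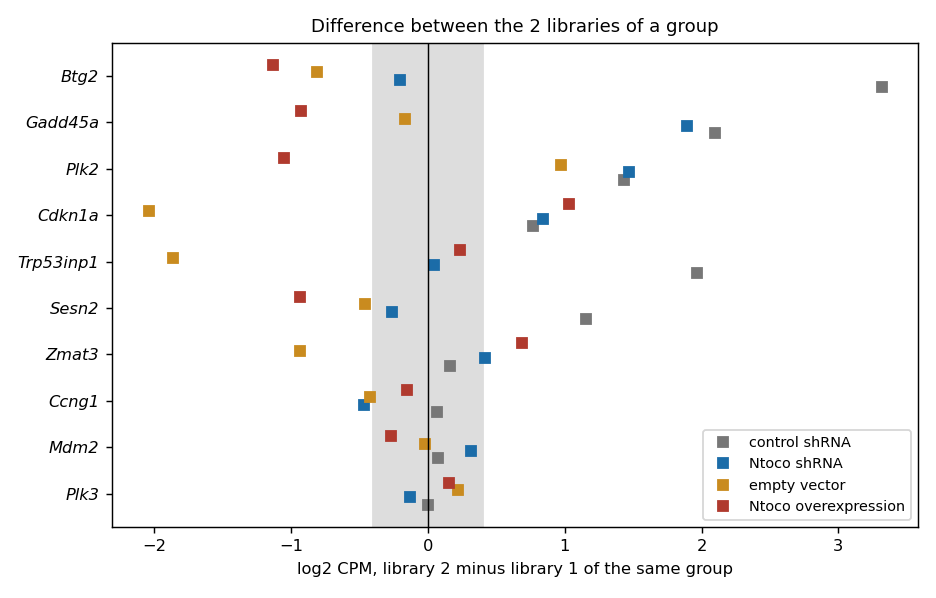
Difference in log2 CPM between library 2 and library 1 of the same group, 1 square a group for each member, with members ordered by their mean absolute difference. The grey band spans plus and minus 0.40, the largest of the 4 group medians over all genes tested; the squares of Plk3 and Mdm2 all lie inside it and Btg2 in the control shRNA group lies at 3.32.

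In knockdown against control shRNA, 0 of 10 members passed an adjusted p of 0.05 by edgeR, against 0% of all 12115 genes, and 0 by DESeq2, against 0.124%. At an unadjusted p under 0.05, 1 member (Plk3) was counted by edgeR, against 3.12% of all genes, and 1 by DESeq2, against 3.6%. Both libraries lay on one side of both controls for 1 member (Plk3, lower), against 29.2% of all genes. The log2 ratio was below 0 for 6 of 10 members, against 49.4% of all genes, and the median was -0.03, against 0.01 over all genes. The number below 0 was 9 without control shRNA library 1 and 4 without control shRNA library 2, with medians of -0.22 and 0.81.

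In overexpression against empty vector, 0 of 10 members passed by edgeR (0% of all genes) and 0 by DESeq2 (0.00825%). Plk3 and Ccng1 had an unadjusted p under 0.05 by edgeR, 2 of 10 members against 7.62% of all genes, and DESeq2 also counted 2, against 8.99%. For 4 members the overexpression and vector libraries did not overlap, against 47.2% of all genes. Of these, Plk3, Mdm2 and Gadd45a were lower (23.1% of all genes) and Ccng1 was higher (24.1%). The log2 ratio was below 0 for 9 of 10 members, all but Ccng1, against 50.5% of all genes, with a median of -0.59 against -0.01 over all genes. For Cdkn1a, Zmat3 and Trp53inp1 this sign rested on empty vector library 1, as given above, and for Btg2 on either empty vector library 1 or overexpression library 2. Without empty vector library 1, 5 of 10 members were below 0, with a median of -0.12.

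The empty vector against the control shRNA compares 2 control constructs and shares libraries with both comparisons above. Here 0 of 10 members passed by edgeR (0% of all genes) and 0 by DESeq2 (2.32%). Plk3 and Mdm2 had an unadjusted p under 0.05 by edgeR, 2 of 10 against 12.5% of all genes, and DESeq2 counted 3, against 14.3%. The libraries did not overlap for 4 members (51.1% of all genes): both vector libraries were higher for Gadd45a, Plk3 and Mdm2 (24.6%) and lower for Ccng1 (26.5%). The log2 ratio was above 0 for 8 of 10 members, against 49.7% of all genes, with a median of 0.51 against -0.00 over all genes. Without empty vector library 1, 5 of 10 were above 0, with a median of 0.06, since Cdkn1a, Trp53inp1 and Zmat3 were then below 0. Without control shRNA library 1 it was 6 of 10, with a median of 0.15, and without control shRNA library 2 it was 9 of 10, with a median of 1.42. Since the vector libraries enter this comparison and the previous one with opposite sign, the values are given side by side: -0.88 and 0.52 for Plk3, -0.30 and 0.51 for Mdm2, -0.80 and 0.97 for Gadd45a, and 0.55 and -0.38 for Ccng1, overexpression first.

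**Figure D3:**
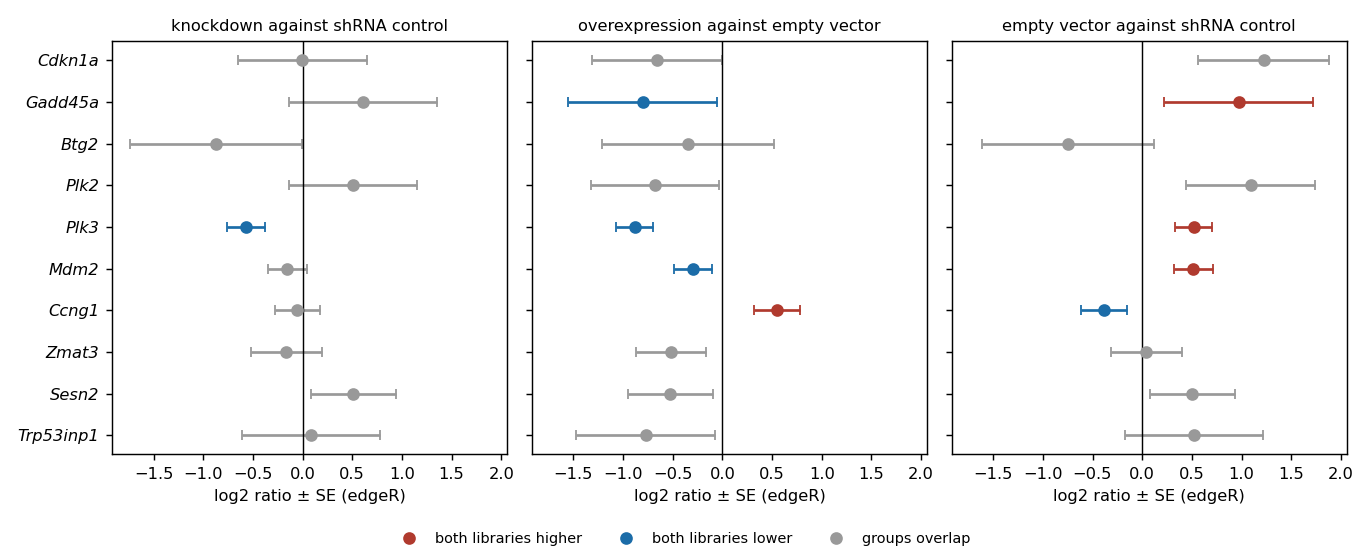
Log2 ratio and its SE (edgeR) of each member in 3 comparisons: the knockdown and the empty vector, each against control shRNA (left and right), and overexpression against empty vector (middle); colour shows whether both libraries of the first group lay above, below or among those of the second. Plk3 is below 0 on the left (-0.57) and in the middle (-0.88) and above 0 on the right (0.52), and the bars of Cdkn1a, Gadd45a, Btg2, Plk2 and Trp53inp1 are the widest.

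The test of the overexpression effect minus the knockdown effect passed for 0 of 10 members by edgeR (0% of all genes) and for 0 by DESeq2 (0.0991%). None had an unadjusted p under 0.05 by either tool, against 6.92% of all genes by edgeR and 8.48% by DESeq2. The difference was below 0 for 8 of 10 members, against 51.6% of all genes, with a median of -0.50 against -0.02. Without empty vector library 1 it was below 0 for 5 of 10, with a median of 0.03, since the values of Cdkn1a, Trp53inp1 and Zmat3 turned to 0.70, 0.37 and 0.19. The median was -1.41 without control shRNA library 2 and -0.17 without knockdown library 2. It was -1.41 (SE 1.06) for Gadd45a, -1.19 (SE 0.91) for Plk2 and -1.04 (SE 0.60) for Sesn2, which had a higher group mean in the knockdown and a lower one under overexpression, each against its control.

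Trp53, which encodes p53, had 189 and 183 CPM in the control shRNA libraries, 157 and 274 in the knockdown libraries, 317 and 254 with the empty vector and 159 and 205 with overexpression. Both vector libraries were above the control shRNA and overexpression libraries. The log2 ratio was 0.21 (SE 0.28) for knockdown, -0.65 (SE 0.29, unadjusted p = 0.0530) for overexpression and 0.62 (SE 0.29, unadjusted p = 0.0634) for the empty vector against the control shRNA, with edgeR adjusted p = 0.992, 0.598 and 0.411. Mdm4, the partner of Mdm2 that masks p53, had 126 and 118 CPM with the empty vector and 79.6 and 88.4 with overexpression, a log2 ratio of -0.54 (SE 0.32). It overlapped between knockdown and control (-0.02, SE 0.31). Abundance of p53 mRNA is no measure of p53 activity, which is set mostly by protein stability.

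Of the 17 genes listed as p53 and its regulators, 16 were tested and 0 passed by edgeR or DESeq2 in the 3 comparisons above. Of these, 1, 0 and 2 had an unadjusted p under 0.05 by edgeR in the knockdown, overexpression and empty vector comparisons. Of all genes, 3.12%, 7.62% and 12.5% did. The median log2 ratio of the list was -0.03 for knockdown, -0.15 for overexpression and 0.17 for the empty vector. The smallest unadjusted p in the knockdown was that of Hipk2, a kinase that phosphorylates p53, with 87.0 and 58.7 CPM against 39.7 and 47.4 (log2 ratio 0.74, SE 0.32). With the empty vector, the checkpoint kinase gene Chek2 was lower than the control shRNA in both libraries (-0.84, SE 0.28) and the p53 deacetylase gene Sirt1 was higher in both (0.86, SE 0.30).

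The list of other p53 targets had medians near 0. Of 40 listed, 37 were measured and 35 tested, and 0 passed by edgeR in any comparison. DESeq2 passed 1, in the empty vector against the control shRNA, against 2.32% of all genes. Their median log2 ratio was -0.04 for knockdown, -0.09 for overexpression and 0.05 for the empty vector. At an unadjusted p under 0.05 by edgeR, 1 was higher and 0 lower in the knockdown, 1 and 1 under overexpression, and 2 and 3 with the empty vector. In either direction, 3.12%, 7.62% and 12.5% of all genes were counted. The 1 in the knockdown was the death receptor gene Fas, with 1.94 and 16.3 CPM against 1.57 and 1.45 (log2 ratio 2.59, SE 0.84), a value carried by knockdown library 2. Under overexpression the microtubule gene Ckap2 was higher (0.85, SE 0.27), the stress cytokine gene Gdf15 had a log2 ratio of -0.93 (SE 0.41), and Sfn, which encodes the cell cycle protein 14-3-3 sigma, had -1.73 (SE 0.71) at 0.366 to 2.09 CPM a library. With the empty vector, Gtse1, whose product restrains p53 in G2, was lower than the control shRNA (28.6 and 26.7 CPM against 66.8 and 56.5, log2 ratio -1.16, SE 0.26), Ckap2 was lower (-0.82, SE 0.27), and the apoptosis nuclease gene Aen was higher (0.91, SE 0.33).

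The KEGG p53 signalling pathway in the authors' annotation column held 68 rows, of which 63 were tested. It includes 6 of the members (Cdkn1a, Gadd45a, Mdm2, Ccng1, Zmat3 and Sesn2). The 57 tested genes other than members had median log2 ratios of -0.09 for knockdown, 0.09 for overexpression and -0.07 for the empty vector. By edgeR 0 passed, with 3, 7 and 10 at an unadjusted p under 0.05 (3.12%, 7.62% and 12.5% of all genes). DESeq2 passed 2 in the empty vector comparison (2.32% of all genes). Ccnd1, which encodes cyclin D1, was lower in both knockdown libraries, with 492 and 308 CPM against 872 and 547 (-0.83, SE 0.33). Ccnd2, which encodes cyclin D2, was lower in both overexpression libraries, with 244 and 288 CPM against 445 and 378 (-0.63, SE 0.19).

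Among the 13 relatives of members tested, 0 passed by edgeR or DESeq2. By edgeR, 2, 3 and 4 had an unadjusted p under 0.05 (3.12%, 7.62% and 12.5% of all genes). The median log2 ratio of these relatives was 0.05 for knockdown, -0.12 for overexpression and -0.12 for the empty vector. Besides Plk4 and Ccng2, Tob2, an antiproliferative relative of Btg2, was lower under overexpression (-0.68, SE 0.27) and higher with the empty vector (0.83, SE 0.27). Cdkn1c, a CDK inhibitor related to Cdkn1a, was lower than the control shRNA in both knockdown libraries (-0.75, SE 0.32) and in both empty vector libraries (-0.93, SE 0.32). Cdkn2c, which encodes the CDK4 and CDK6 inhibitor p18, was higher under overexpression (78.5 and 62.4 CPM against 22.0 and 24.8, log2 ratio 1.59, SE 0.51). It was lower with the empty vector than with the control shRNA (-2.03, SE 0.51), the only one of the 5 other CDK inhibitors tested to pass by DESeq2 in any of the 3 comparisons, with edgeR adjusted p = 0.337.

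The list of 31 cell cycle genes holds CDKs and cyclins, the retinoblastoma family genes Rb1, Rbl1 and Rbl2, and E2F and cell division genes. Of these, 25 had a log2 ratio above 0 under overexpression, 5 with the empty vector and 3 in the knockdown, each against its control (49.5%, 49.7% and 50.6% of all genes). Both overexpression libraries were higher for 18 and lower for 2 (24.1% and 23.1% of all genes), with a median log2 ratio of 0.36. Both empty vector libraries were higher for 2 and lower for 13 (24.6% and 26.5% of all genes), with a median of -0.43. In the knockdown 0 were higher and 8 lower (15.1% and 14.1% of all genes), with a median of -0.37. Cdkn1a itself had -0.0035 (SE 0.65) for knockdown, -0.66 (SE 0.65) for overexpression and 1.22 (SE 0.66) for the empty vector. A link between Cdkn1a and this list was not tested. Relative to the control shRNA mean, the list median was -0.11 and -0.66 in knockdown libraries 1 and 2, and 0.19 and -0.19 in the control libraries. It was -0.39 and -0.32 with the empty vector and -0.03 and -0.02 with overexpression. The knockdown shift was thus mostly that of library 2. Mki67, a marker of cycling cells, had 452 and 278 CPM in the control shRNA libraries, 369 and 116 in the knockdown libraries, 102 and 234 with the empty vector and 292 and 341 with overexpression. Its lowest library, empty vector library 1, was the highest in Cdkn1a. The list median was instead lowest in knockdown library 2, where Cdkn1a had 101 CPM. By edgeR and by DESeq2 0 of the 31 passed. At an unadjusted p under 0.05 edgeR counted 1, 5 and 8 of them, against 3.12%, 7.62% and 12.5% of all genes.

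The 21 immediate early genes had median log2 ratios of -0.48 for knockdown, -0.15 for overexpression and -0.39 for the empty vector, and the first and the last of these involve control shRNA library 2, described above. Srf, the serum response factor gene, was lower in both knockdown libraries (-0.70, SE 0.23). Fosl1 was lower under overexpression (-0.77, SE 0.29) and higher with the empty vector (1.23, SE 0.29). The 19 ATF4 targets, a list that contains Sesn2, had medians of 0.30, -0.44 and 0.50. In both knockdown libraries 3 were higher and 1 lower (15.1% and 14.1% of all genes). Under overexpression it was 0 and 11 (24.1% and 23.1%), and with the empty vector 12 and 0 (24.6% and 26.5%). Ddit3, the stress factor CHOP, had 85.5 and 215 CPM in the knockdown against 39.4 and 64.4 (1.53, SE 0.44), and Cebpb had 74.1 and 62.3 CPM under overexpression against 119 and 118 (-0.80, SE 0.25). By edgeR 0 genes of either list passed, with 2, 2 and 2 immediate early genes and 1, 3 and 6 ATF4 targets at an unadjusted p under 0.05. The shares of all genes at that threshold were 3.12%, 7.62% and 12.5%. DESeq2 passed 2 of each list with the empty vector (2.32% of all genes).

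**Figure D4:**
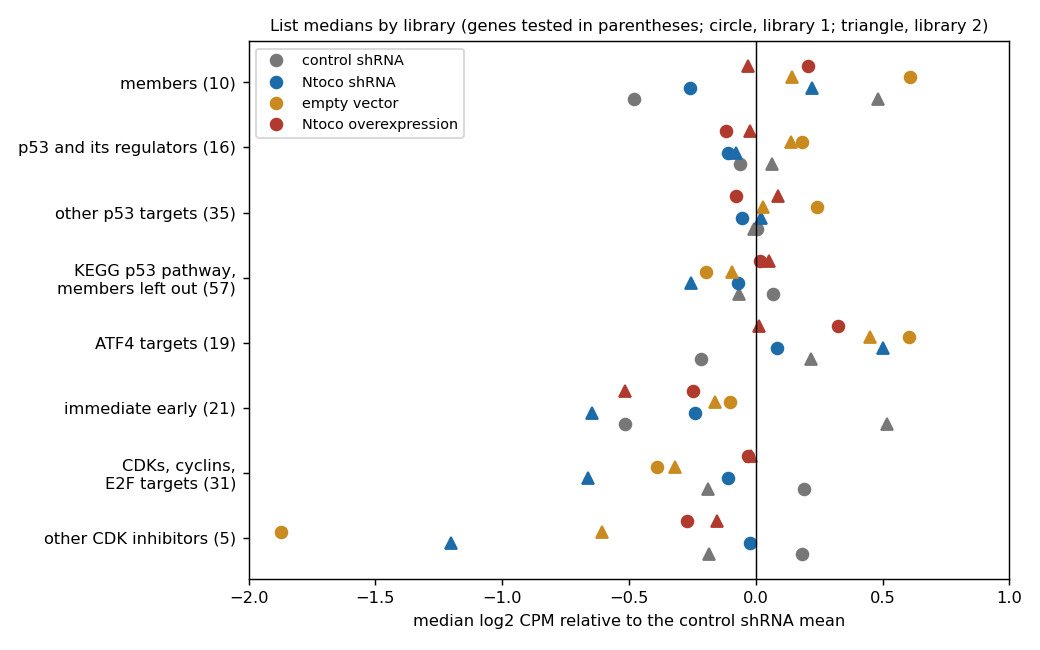
Median log2 CPM of each gene list in each library relative to the mean of the control shRNA libraries, with the number of genes tested in parentheses; circles are library 1, triangles library 2 and colours the 4 groups, and the 2 control shRNA points mirror each other by construction. The members run from -0.48 in control shRNA library 1 to 0.61 in empty vector library 1, while the other p53 targets stay between -0.08 and 0.24.

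Because many members varied within groups, their levels were set beside each other over the 8 libraries, which share a cell line and fall into 4 groups; the coefficients are descriptions. Among members, Gadd45a and Plk2 were the most alike by Pearson r (r = 0.92, Spearman rho = 0.79, and r = 0.75 without the 2 libraries farthest from the median of Gadd45a). Btg2 and Sesn2 had r = 0.78 and rho = 0.83 (0.93 without 2). Trp53inp1 had r = 0.76 and rho = 0.76 with Btg2 (0.54 without 2) and r = 0.73 and rho = 0.62 with Cdkn1a (0.64 without 2). With Sesn2 it had r = 0.69 and the highest rho among members, 0.86 (r = 0.79 without 2). Cdkn1a and Mdm2, the p53 targets most often used as readouts, had r = 0.50 (0.26 without 2). Ccng1 and Mdm2 had r = -0.48 (0.19 without 2).

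Of all genes tested, the 3 most like Cdkn1a were Esco1 (r = 0.99), Eda2r (0.98) and Bclaf1 (0.96). These genes, and those named for other members below, were picked for the highest r over these same libraries. A high r therefore follows from the choice, and r on fewer of these libraries is no separate check. Eda2r, a death receptor of the TNF family and p53 target, had 8.64 and 18.2 CPM in the control shRNA libraries, 9.15 and 23.4 in the knockdown libraries, 64.9 and 14.3 with the empty vector and 13.1 and 28.7 with overexpression. It had the same library as Cdkn1a at the top. Without the 2 libraries farthest from the median of Cdkn1a, r was 0.97. Gadd45a was most like Stard5, Zbtb18 and Vegfa (each r = 0.98). Vegfa, the angiogenic growth factor gene, had 200.2 and 401 CPM in the control shRNA libraries, 244 and 475 in the knockdown libraries, 522 and 453 with the empty vector and 359.6 and 249 with overexpression, and r was 0.97 without 2.

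Plk3 was most like Pabpc4 (r = 0.98, and 0.98 without 2), a cytoplasmic poly(A)-binding protein gene, followed by Tmem95 and Aven. Pabpc4 had 355 and 339 CPM in the control shRNA libraries, 297 and 289 in the knockdown libraries, 370.4 and 387 with the empty vector and 303 and 324 with overexpression, the same order of groups as Plk3 over a smaller range. Btg2 was most like Arnt, Rxrb and Mtmr3 (r = 0.96, 0.92 and 0.92), Plk2 most like Nnmt, Tmem132c and Coq2 (each r = 0.97), Zmat3 most like Abcc5, Mib1 and Sugct (0.99, 0.97 and 0.97) and Trp53inp1 most like Jmy, Usp37 and Nr4a3 (0.97, 0.94 and 0.94). Sesn2 was most like Bach1, Rwdd2a and Vldlr (0.96, 0.93 and 0.92), and these rested on control shRNA library 1 and overexpression library 2: without them r was 0.69, -0.60 and 0.29. Mdm2 and Ccng1 were left out of this step because their levels spanned less than 1 on the log2 scale.

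**Figure D5:**
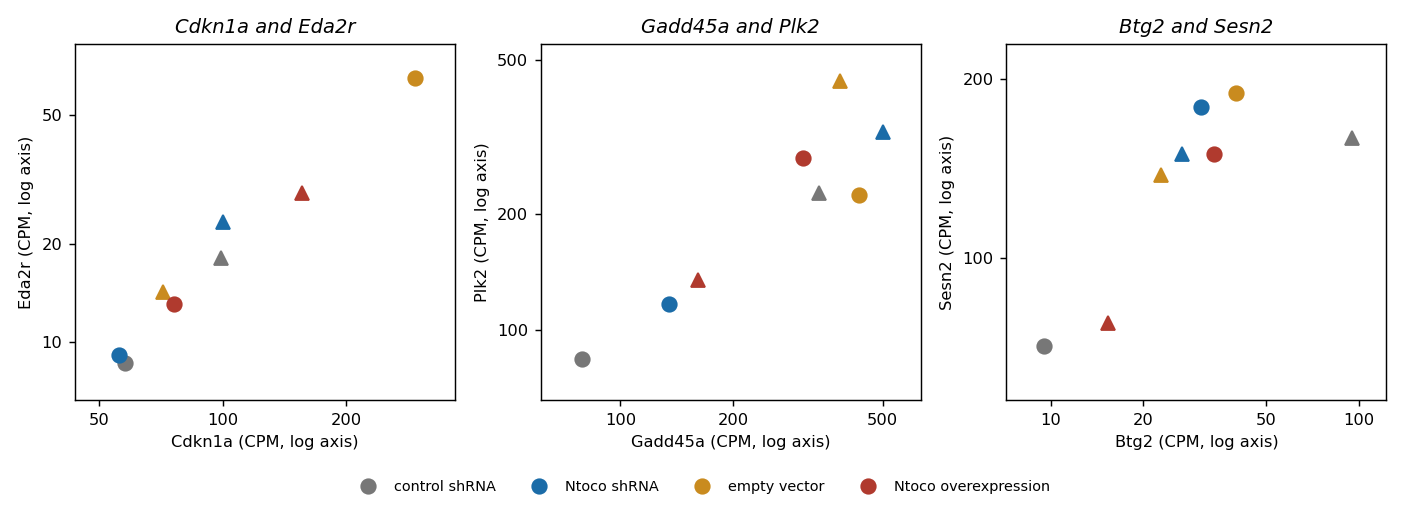
CPM on log axes of 3 pairs of genes in the 8 libraries, coloured by group, with circles for library 1 and triangles for library 2. Cdkn1a and Eda2r lie along a line with empty vector library 1 at the top (295 and 64.9 CPM), Gadd45a and Plk2 rise together with more scatter, and in the third pair 6 of 8 libraries lie between 138 and 189.5 CPM of Sesn2.

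Over the 8 libraries, length-scaled levels of the members ran in the order Gadd45a, Plk2 (mean 81.8 FPKM), Ccng1 (55.6), Cdkn1a (55.4), Sesn2 (52.5), Plk3 (18.1), Btg2 (11.2), Mdm2 (8.64), Zmat3 (6.13) and Trp53inp1. Ccng1, Cdkn1a and Sesn2 differed in mean by less than the spread of Cdkn1a between libraries (28.1 to 138 FPKM), so their order is not resolved. Plk2 spanned 29.9 to 156 FPKM, which covers the means of Ccng1, Cdkn1a and Sesn2. Btg2 spanned 3.06 to 32.0 FPKM, which covers those of Plk3, Mdm2, Zmat3 and Trp53inp1. The places of Plk2 and Btg2 are therefore not resolved either. The reads of Cdkn1a, Gadd45a, Plk3 and Sesn2 could in part belong to genes that overlap them in GENCODE M21 (AC167363.2, E230016M11Rik and Tctex1d4 on the opposite strand, Gm12981 on the same strand). Per the labels the library kit was stranded, and the strand setting of the counting is not given in the sources used here.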

How the data were processed

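RNA was extracted with TRIzol and stranded mRNA libraries were made, per the labels' protocols. Tools listed in the submitters' processing notes, without versions, are HTSeq, HISAT2, Trimmomatic, DESeq and Cufflinks, with build mm10. The authors deposited counts per gene and FPKM for 8 libraries. Columns were matched to groups by construct type, since an abbreviation in their names is not explained in the labels. Counts were tested with edgeR 4.0.16 (R 4.3.3): filterByExpr with a minimum count of 10, TMM factors, 1 quasi-likelihood fit of 4 groups (4 residual degrees of freedom, biological coefficient of variation 28.0%) and Benjamini-Hochberg adjustment over 12115 genes at 0.05. FPKM served only to compare levels between genes. The code of the test was checked on simulated counts with large changes and the same spread for all genes. That check covered the size and sign of the ratios, and power at smaller changes was not checked. Alternatives were DESeq2 1.42.0, other normalization and filters, only the groups compared, a replicate block, FPKM-based levels and each library left out. An exact permutation of 2 against 2 libraries cannot go below p = 0.333. The members and lists were chosen with earlier results of these data known. Text names all members, up to 4 genes a list with the smallest unadjusted p, Trp53, Mdm4, relatives of members, and the 3 genes most like a member (Pearson r of log2 CPM, prior count 2) where its log2 range was at least 1; Fos, Egr1 and Mki67 were named after their values were seen. A gene of the KEGG list that this rule names is not reported here. Tctex1d4 was added for its overlap.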

Additional observations from a re-analysis of the deposited data

How the results depend on the processing

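No member passed an adjusted p of 0.05 under any alternative or with any library left out. Members had 157 to 10164 counts a library, and with 2 libraries a group the spread between libraries sets the SE given for each. The number of genes called over the whole table moved from 0: DESeq2 called 15 genes in the knockdown, 1 under overexpression, 281 with the empty vector and 12 in the difference of effects. Without a filter on low counts 3 were called with the empty vector, and fitting only the groups compared called 1 under overexpression and 128 with the empty vector. With 1 library left out the counts ran from 0 to 1 in the knockdown (1 without knockdown library 1), 0 to 25 under overexpression (25 without overexpression library 2), 0 throughout with the empty vector and 0 to 1 in the difference (1 without knockdown library 1); there the lone library is assumed to vary like the other groups. The cause was not tested. With library numbers as a replicate block, 0 genes passed in each comparison (292, 835, 1329 and 738 at an unadjusted p under 0.05); deviations of same-numbered libraries correlated at -0.36 to 0.36, so the numbers were not taken to pair libraries, and the block changed no other call. Outside the left-out libraries the only sign that reversed was that of Cdkn1a in the knockdown, 0.0059 by DESeq2, 0.0062 with DESeq2-style size factors in edgeR and 0.0085 with only the groups compared. With each library left out in turn, log2 ratios whose sign changed ran in the knockdown from -1.73 to 1.59 for Btg2, -0.31 to 0.16 for Ccng1, -0.49 to 0.43 for Cdkn1a, -0.63 to 1.998 for Gadd45a, -0.41 to 1.39 for Plk2, -0.59 to 1.38 for Trp53inp1 and -0.39 to 0.022 for Zmat3. They ran under overexpression from -1.02 to 0.12 for Btg2, -1.34 to 0.70 for Cdkn1a, -1.42 to 0.45 for Trp53inp1 and -0.91 to 0.028 for Zmat3. They ran with the empty vector from -1.61 to 1.72 for Btg2, -0.14 to 1.91 for Cdkn1a, -0.70 to 1.82 for Trp53inp1 and -0.50 to 0.43 for Zmat3. They ran in the difference of effects from -1.95 to 1.39 for Btg2, -1.34 to 0.70 for Cdkn1a, -0.29 to 0.029 for Mdm2, -2.15 to 0.37 for Trp53inp1 and -0.75 to 0.19 for Zmat3. The signs of Plk3, Mdm2, Ccng1, Sesn2, Gadd45a and Plk2 under overexpression and with the empty vector, and of Plk3, Mdm2 and Sesn2 in the knockdown, held whichever library was left out. Of the 80 member levels recomputed from FPKM, 74 moved by less than 1 SD of their group and 6 moved by more.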
